A study of Mus musculus with 12 samples.

Results

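Keratin-associated protein genes, whose mouse symbols begin with Krtap, were followed across 12 bulk RNA-seq libraries of mouse skin. Members were all genes with such a symbol and at least 10 counts summed over the 12 libraries, and 57 of 53465 gene identifiers met both conditions. Krtap13 also carried the symbol, had 0 counts and is no member. Each of 4 groups held 3 libraries.

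Irradiated DE2 skin came from mice with an altered Foxp3, written Foxp3-E2 in the sample labels, Foxp3-DE2 in the protocol and Foxp3dExon2 in the series title. Irradiated WT skin came from Foxp3-WT mice, and in both genotypes it was a shaved patch of 3 by 2 cm on the back flank that was given 6 doses of ultraviolet B light (UVB). The labels state 200 mJ/cm2 and the protocol 100 mJ/cm2, which could not be settled. Untreated DE2 and untreated WT skin came from a site without UVB, and the sources used here do not say whether it was shaved. Effects of UVB, of site and of any difference in shaving therefore cannot be told apart. Below, a change with UVB means one between untreated and irradiated skin. The labels used here give no age, and they do not link libraries to animals, batches or days. The p-values therefore measure the spread between libraries, which may be technical. Foxp3, the transcription factor of regulatory T cells, had 1, 7 and 0 counts in irradiated DE2 libraries and 0 in the other 9. Counts of whole genes do not show exon 2, so the genotype labels could not be checked.

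Keratin-associated proteins form the matrix between the keratin filaments of the hair shaft and are joined to them by disulfide bonds. Their genes are switched on late, in the cortex and cuticle cells that leave the hair bulb while a follicle is in its growth phase, anagen. Follicles at rest make little of them. Most have a single exon, and they lie in clusters of related copies. By composition they are called high glycine-tyrosine, high sulfur or ultrahigh sulfur proteins.

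The 57 genes lay at 5 loci of GRCm38. On chromosome 16, 24 genes lay between positions 88610705 and 89571183, and on chromosome 11, 23 genes lay between 99550130 and 99993994. A further 5 lay on chromosome 7 (Krtap5 genes, 142174535 to 142304594), 3 on chromosome 10 (Krtap10 and Krtap12 genes, 77720599 to 77837252) and 2 on chromosome 1 (Krtap28 genes, 83041524 to 83061921). Proteins translated from the annotated coding sequences put 19 genes in the high glycine-tyrosine class (glycine plus tyrosine at 35% of residues or more). Of the others, 17 were put in the ultrahigh sulfur class (cysteine at 30% or more) and the remaining 20 in the high sulfur class. That class had no lower cysteine limit, and its proteins held 4.0% to 29.8% cysteine, so not all are rich in sulfur. Krtap19-9a is annotated as a processed pseudogene and has no class. The chromosome 16 genes were 15 high glycine-tyrosine and 8 high sulfur genes with Krtap19-9a, and the chromosome 11 genes were 12 ultrahigh sulfur and 11 high sulfur genes. Krtap28-10, Krtap28-13, Krtap5-2 and Krtap5-3 met the glycine limit without any tyrosine, at 34.6% to 42.9% cysteine.

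The proteins were short, with a median of 86 residues in the high glycine-tyrosine class, 167.5 in the high sulfur class and 202 in the ultrahigh sulfur class. Krtap3-2 and Krtap3-3 encode identical proteins, and those of Krtap6-1 and Krtap6-5 are 98.7% identical. Of the 57 genes, 41 shared at least 1 exonic window of 50 bases with another annotated gene, and 14 shared over 20% of their windows. Krtap4-13 shared 81.3% and Krtap5-1 54.3%, so the split of reads between such copies is uncertain. Krtap24-1 overlaps exons of Gm49688 on the opposite strand, and Krtap10-10 and Krtap15 overlap exons of Gm2696 and 4930553J12Rik on the same strand.

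Promoters show a feature that membership did not use. Of the 57 genes, 50 matched an entry of a RefSeq promoter table (GRCm38.p6, 250 bases before to 50 after each start). The TATA box sequence TATAAA lay on the gene's strand with its first base 40 to 20 bases before the start in 31 of the 50 promoters (62.0%), against 2.0% of 32851 promoters in the table. On either strand and anywhere in the window it was present in 41 (82.0%), against 13.6% of the table. The 100 bases before the start are shown, 5′ to 3′ on the gene's strand, for 11 genes that the results below turn on, 8 with the box between 40 and 20 bases before the start and 3 of the 19 without it there. A TATAAA is in capitals where it lies in that stretch and in lower case elsewhere.
Krtap22-2 (chr16:89010760-89010859, minus strand): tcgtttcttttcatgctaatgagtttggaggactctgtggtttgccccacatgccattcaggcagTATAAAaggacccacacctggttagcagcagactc
Krtap8-1 (chr16:89487953-89488052, minus strand): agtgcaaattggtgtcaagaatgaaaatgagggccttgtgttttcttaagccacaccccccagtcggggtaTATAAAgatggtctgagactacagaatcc
Krtap24-1 (chr16:88612280-88612379, minus strand): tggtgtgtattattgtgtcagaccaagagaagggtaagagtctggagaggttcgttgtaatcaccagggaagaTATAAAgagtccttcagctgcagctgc
Krtap20-2 (chr16:89205761-89205860, plus strand): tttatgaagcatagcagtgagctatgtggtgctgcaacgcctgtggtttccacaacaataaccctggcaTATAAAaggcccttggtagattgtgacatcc
Krtap3-2 (chr11:99556854-99556953, minus strand): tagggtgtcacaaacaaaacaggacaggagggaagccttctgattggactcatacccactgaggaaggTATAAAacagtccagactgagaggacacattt
Krtap1-5 (chr11:99581017-99581116, minus strand): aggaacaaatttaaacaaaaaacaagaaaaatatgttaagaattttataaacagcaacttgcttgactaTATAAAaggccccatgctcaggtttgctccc
Krtap4-7 (chr11:99644090-99644189, minus strand): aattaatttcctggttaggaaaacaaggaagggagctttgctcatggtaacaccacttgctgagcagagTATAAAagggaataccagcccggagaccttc
Krtap5-2 (chr7:142176006-142176105, minus strand): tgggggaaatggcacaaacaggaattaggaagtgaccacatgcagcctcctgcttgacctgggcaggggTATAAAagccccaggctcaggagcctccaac
Krtap16-1 (chr11:99986594-99986693, minus strand): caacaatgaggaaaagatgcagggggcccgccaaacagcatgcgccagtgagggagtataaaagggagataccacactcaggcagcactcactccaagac
Krtap13-1 (chr16:88728762-88728861, plus strand): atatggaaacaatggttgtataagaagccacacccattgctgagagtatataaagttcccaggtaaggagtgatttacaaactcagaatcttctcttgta
Krtap10-4 (chr10:77827071-77827170, minus strand): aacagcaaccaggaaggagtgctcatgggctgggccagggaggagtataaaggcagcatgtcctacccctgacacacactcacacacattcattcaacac
In the first 8, the first base of the box in capitals stood 27 to 35 bases before the start. Krtap1-5 holds a second match farther upstream. In Krtap16-1, Krtap13-1 and Krtap10-4 the only match in these 100 bases lies farther than 40 bases from the RefSeq start. The GENCODE start, used for gene positions here, lies 4 bases from the RefSeq start in Krtap16-1, 0 in Krtap13-1 and 25 in Krtap10-4. In Krtap15 the distance is 8794 bases. Whether a box falls 40 to 20 bases before the start, and so the count of 31, depends on the start used. Of the other motifs searched on both strands, TCAAAG, the core bound by LEF1 and TCF factors, was present in 15 of 50 (30%) against 16% of the table. CCAATAAA was present in 0 of 50 against 1.1%, and CTCGTAAA, like it a homeobox-type sequence, in 1 (2.0%) against 0.1%. A match is a description of these letters and not evidence of binding.

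The deposited values are raw counts per gene, 2809142 to 4741726 per library. Krtap counts per library were 34863 to 64276 in irradiated DE2, 84920 to 130655 in irradiated WT, 582 to 1700 in untreated DE2 and 59593 to 88314 in untreated WT skin. Levels are given as CPM, the counts of a gene relative to the TMM-corrected total of its library. The untreated DE2 libraries stood apart over all genes, at 102 to 135 on the first principal component (39.7% of variance), against -73.7 to -11 for the other 9 libraries. The skeletal muscle list took 6.78% to 12.2% of counts in untreated DE2, against 3.5% to 4.36% in untreated WT libraries.

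Krtap transcripts were close to missing from untreated DE2 skin and abundant in the other 3 groups. The family took 1.75%, 0.858% and 1.92% of counts in irradiated DE2 libraries and 3.76%, 2.02% and 3.33% in irradiated WT libraries. It took 0.0404%, 0.0132% and 0.0143% in untreated DE2 libraries and 1.5%, 2.29% and 2.01% in untreated WT libraries. Untreated DE2 thus lay below every other group without overlap, and the 3 remaining groups lay within a few-fold of each other. The mean share was 66.8 times higher in irradiated DE2 (1.51% ± 0.572) than in untreated DE2 skin (0.0226% ± 0.0154), and 1.58 times higher in irradiated WT (3.04% ± 0.909) than in untreated WT skin (1.93% ± 0.401; SD, n = 3 each). In bulk skin, fewer hair-forming cells and less Krtap RNA per cell cannot be told apart. With muscle genes left out of the totals the means were 1.56%, 3.14%, 0.0248% and 2.01%, in the same order of groups.

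**Figure D1:**
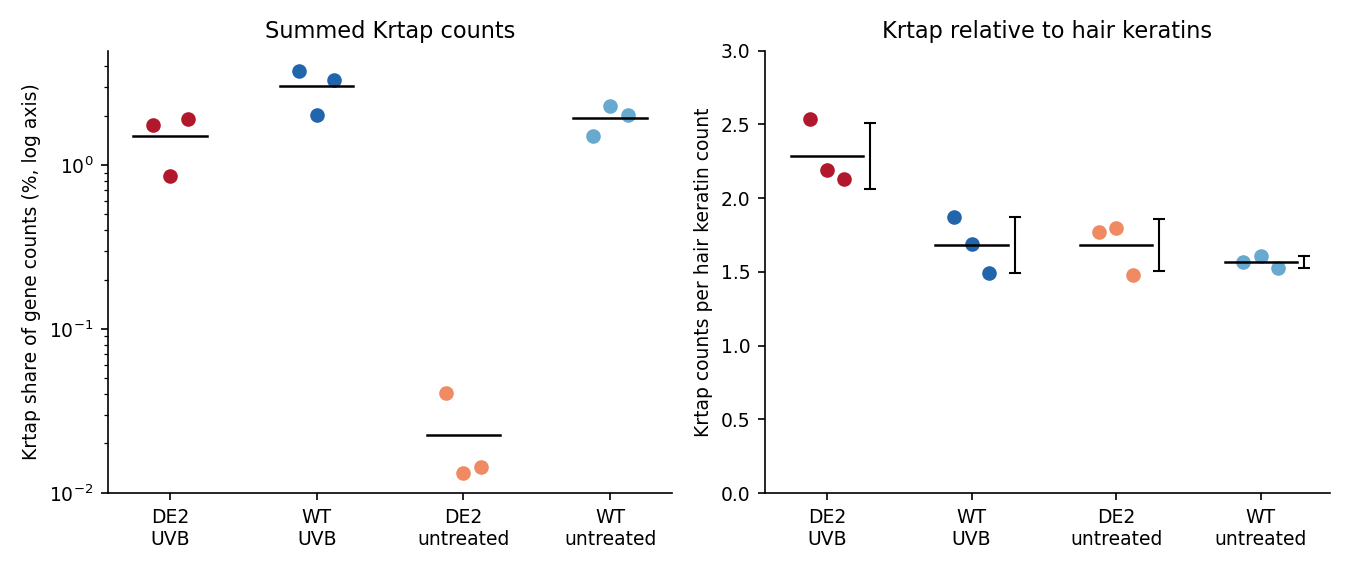
Left, summed Krtap counts as a percentage of all gene counts in each library, on a log axis; right, Krtap counts divided by counts of the cortex and cuticle keratin list. Points are libraries, horizontal bars are group means and, on the right, brackets are SD; untreated DE2 means 0.0226% on the left, and irradiated DE2 lies highest on the right at 2.13 to 2.54.

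Relative to the hair keratins, the filament proteins that Krtap proteins surround, the family varied far less between groups. Krtap counts per hair keratin count were 2.54, 2.19 and 2.13 in irradiated DE2, 1.87, 1.69 and 1.49 in irradiated WT, 1.77, 1.8 and 1.48 in untreated DE2, and 1.57, 1.61 and 1.53 in untreated WT libraries. The irradiated DE2 libraries lay above all 9 others in this ratio. The means were 2.29 ± 0.221, 1.68 ± 0.19, 1.68 ± 0.179 and 1.57 ± 0.0357 (SD, n = 3), and with 3 libraries against 3 no permutation test of such a value can pass 0.05.

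**Figure D2:**
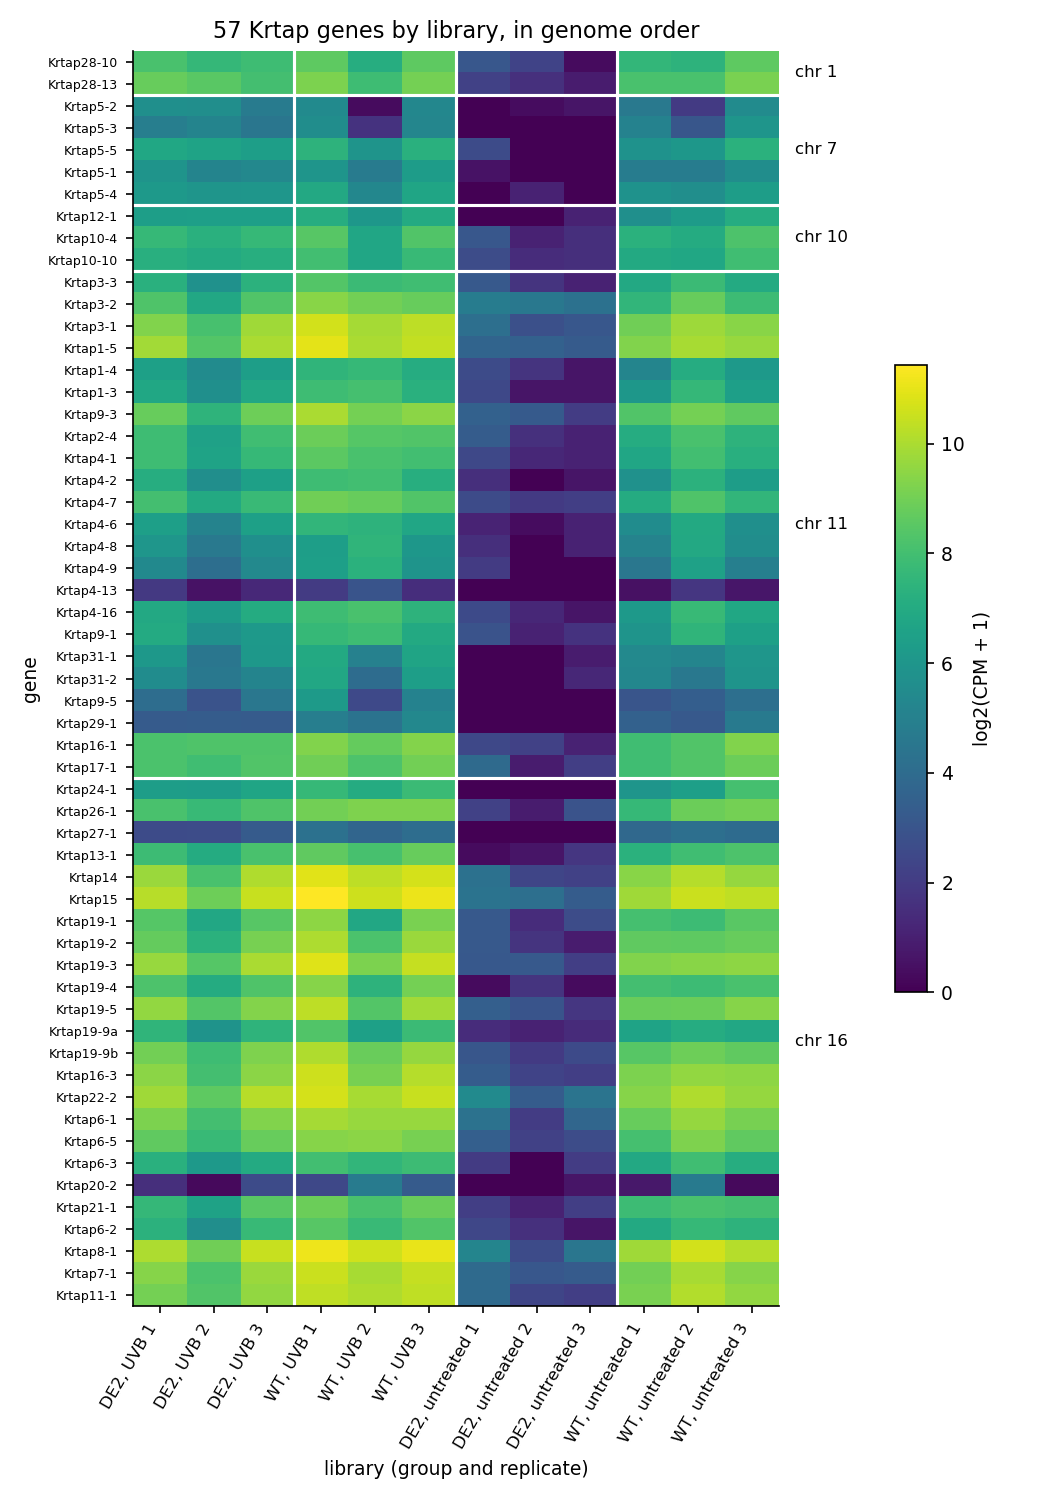
Level of each of the 57 genes (rows, in genome order with white lines between chromosomes) in each library (columns, by group and replicate), as log2(CPM + 1). The 3 untreated DE2 columns are dark in nearly every row, and Krtap3-2, at 18.3 to 27.1 CPM there, is among the brighter rows.

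In DE2 mice, nearly every Krtap gene was higher in irradiated than in untreated skin. Of 57 genes, 56 rose with an adjusted p under 0.05 (edgeR's quasi-likelihood test, Benjamini-Hochberg over 15126 genes) and 0 fell, and 14.4% of all tested genes rose. Scaled by total counts with no TMM factor, all called genes split into 2712 higher and 1368 lower in place of 2180 and 2022, and 56 Krtap genes rose as before. The same 56 had all 3 irradiated libraries above all 3 untreated ones, which held for 22.0% of all genes. The median log2 fold change over the 57 was 6.16, or 5.86 with genes at 0 in untreated DE2 set at a bound of 3 counts over the group, against 0.02 over all genes. All 17 ultrahigh sulfur and all 20 high sulfur genes rose (medians 5.66 and 6.16), as did 18 of 19 high glycine-tyrosine genes (median 6.35).

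Among high sulfur genes, Krtap16-1 (ENSMUSG00000078253, chromosome 11, 99984710 to 99986597, minus strand, 1 exon) had 296, 310 and 312 CPM in irradiated DE2 and 4.63, 3.68 and 1.11 CPM in untreated DE2 libraries. Its log2 fold change of 6.58 ± 0.45 (SE) had the smallest p of the family (adjusted p = 4.57e-07). Krtap1-5 had 919, 334 and 1020 CPM in irradiated DE2 and 11.9, 10.8 and 8.89 CPM in untreated DE2 libraries, a log2 change of 6.16 ± 0.45. The groups were far apart in both genes, with the second irradiated library the lowest for Krtap1-5.

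Krtap13-1 (ENSMUSG00000056350, chromosome 16, 88728862 to 88729611, plus strand), also a high sulfur gene, had 226, 132 and 285 CPM in irradiated DE2 and 0.244, 0.566 and 2.5 CPM in untreated DE2 libraries, a log2 change of 7.6 ± 0.54. Among ultrahigh sulfur genes, Krtap4-7 had 262, 124 and 218 CPM in irradiated DE2 and 5.12, 2.83 and 3.33 CPM in untreated DE2 libraries, a log2 change of 5.71 ± 0.42. Among high glycine-tyrosine genes, Krtap8-1 had 1050, 497 and 1410 CPM in irradiated DE2 and 36.1, 5.09 and 21.4 CPM in untreated DE2 libraries, a log2 change of 5.55 ± 0.6. In each of these genes the lowest irradiated library was the second.

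Krtap24-1, whose human counterpart is a hair cuticle protein, had 81.1, 80.3 and 106 CPM in irradiated DE2 and 0 counts in all untreated DE2 libraries. It was at least 327-fold higher with UVB, taking 3 counts over the untreated group as the floor. Krtap5-3, Krtap29-1, Krtap9-5, Krtap27-1 and Krtap4-13 were also without counts in untreated DE2, and were at least 110-fold, 33-fold, 51.8-fold, 23.1-fold and 5.68-fold higher. Krtap5-1, with 2 counts in untreated DE2, was 253-fold higher (95% interval 69.8 to 2100), an interval that covers counting error only.

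The smallest change was in Krtap3-2. It had 313, 117 and 324 CPM in irradiated DE2 and 27.1, 22.6 and 18.3 CPM in untreated DE2 libraries, a log2 change of 3.47 ± 0.41. Its near copy Krtap3-3 had 154, 53.7 and 162 CPM in irradiated DE2 and 8.29, 2.26 and 1.11 CPM in untreated DE2 libraries. Reads of this pair, which share 28.9% of the windows of Krtap3-2, may be split between them.

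Krtap20-2 was the gene that did not pass in DE2 mice. It had 1.9, 0.242 and 5.1 CPM in irradiated DE2 and 0, 0 and 0.556 CPM in untreated DE2 libraries, so the groups overlapped. The log2 change was 3.47 ± 1.91 (adjusted p = 0.201), and the ratio of summed levels was 11.7 (95% interval 2.88 to 103). Krtap4-13 passed at 5.61 ± 1.72 (adjusted p = 0.0274) on 2.72, 0.484 and 1.46 CPM in irradiated DE2. It no longer passed without irradiated DE2 replicate 1 (adjusted p = 0.0804) or any 1 of the untreated DE2 libraries (0.0547 to 0.0699). With limma voom 50 of the 57 genes rose, against 2022 of 15126 over all genes. The 7 that did not pass were Krtap20-2 (adjusted p = 0.449), Krtap5-2 (0.175), Krtap31-2 (0.0952), Krtap9-5 (0.0874), Krtap5-3 (0.0867), Krtap4-13 (0.0825) and Krtap4-9 (0.0636).

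**Figure D3:**
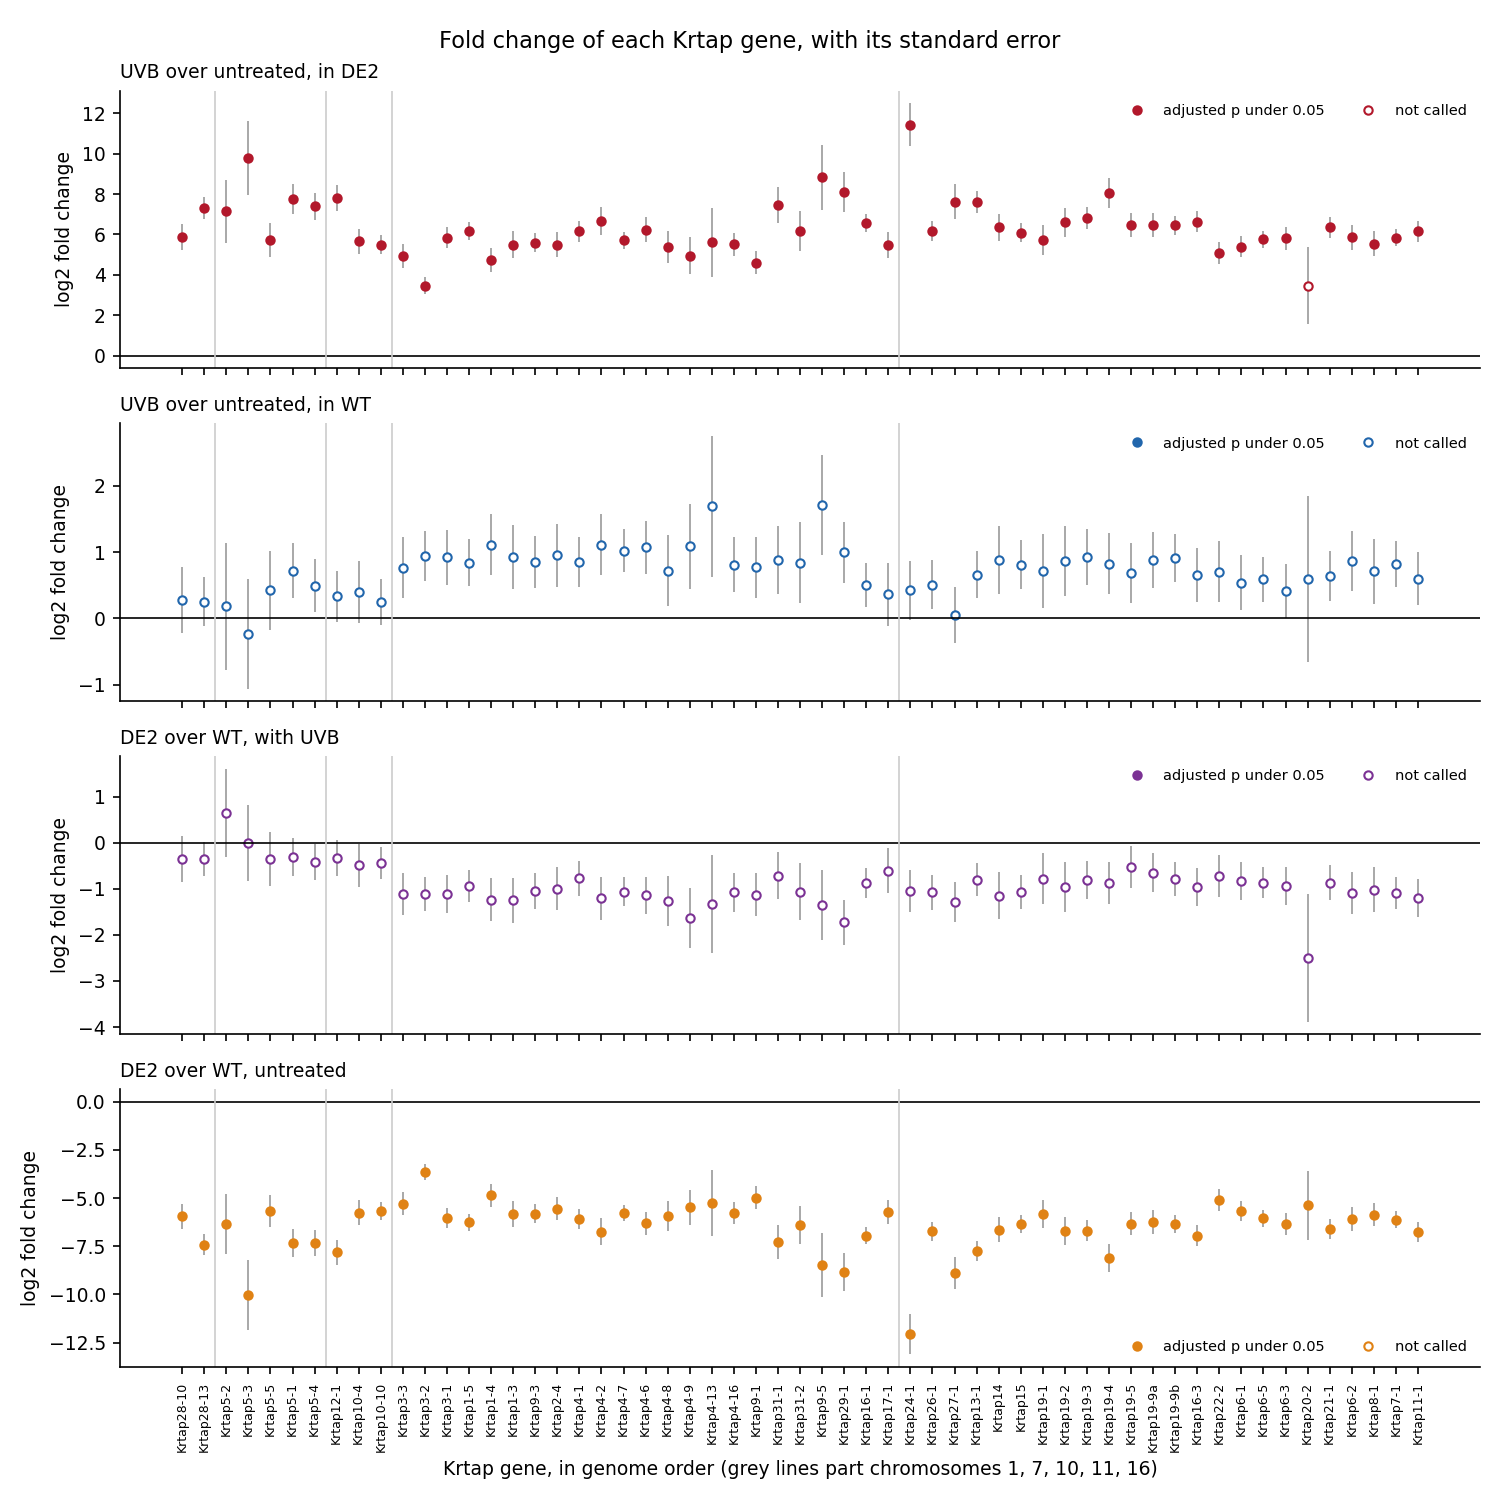
Log2 fold change of each of the 57 genes in genome order, with bars of 1 standard error, for UVB over untreated in DE2 and in WT and for DE2 over WT with UVB and without; the scales of the 4 panels differ. Filled points passed an adjusted p of 0.05; 56 are filled in the top panel, 57 in the bottom panel and 0 in the middle panels.

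Without UVB, all 57 Krtap genes were lower in DE2 than in WT skin. This comparison shares the untreated DE2 libraries with the previous one, so the 2 are not independent. All 57 passed, where 11.2% of all tested genes fell, and 56 had the 3 DE2 libraries below the 3 WT libraries, which held for 20.4% of all genes. Scaled by total counts, all called genes split into 788 higher and 3011 lower in place of 1782 and 1695, and 57 Krtap genes fell as before. The median log2 fold change was -6.26, or -6.09 with the bounds, against 0.03 over all genes, and the range was -12.06 to -3.65.

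Krtap16-1 had 4.63, 3.68 and 1.11 CPM in untreated DE2 and 246, 318 and 618 CPM in untreated WT libraries, a log2 change of -6.94 ± 0.45 (adjusted p = 3.16e-07). Krtap6-5, a high glycine-tyrosine gene, had 9.99, 3.68 and 5.28 CPM in untreated DE2 and 265, 604 and 406 CPM in untreated WT libraries, a change of -6.05 ± 0.44. Krtap22-2, the gene with the highest level per kb, had 44.1, 9.05 and 20.3 CPM in untreated DE2 and 653, 1080 and 794 CPM in untreated WT libraries, a change of -5.1 ± 0.55. The WT values were all over 10 times the DE2 values in these genes.

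Krtap24-1 had 0 counts in untreated DE2 and 62.5, 86.4 and 265 CPM in untreated WT libraries, at least 528-fold lower in DE2. Krtap3-2 again changed least, at -3.65 ± 0.41. Krtap20-2 had 0, 0 and 0.556 CPM in untreated DE2 and 0.653, 25.6 and 0.208 CPM in untreated WT libraries, so the groups overlapped and 1 WT library carried the difference. Its call (-5.38 ± 1.81, adjusted p = 0.0462) was lost without untreated WT replicate 2, where the log2 change was -1.19 (adjusted p = 0.681), and also without irradiated DE2 replicate 1 or 3, irradiated WT replicate 1 or any 1 of the untreated DE2 libraries (0.0533 to 0.139). Krtap4-13 (-5.25 ± 1.72, adjusted p = 0.0428) was lost without any of 8 single libraries (adjusted p 0.0541 to 0.143), irradiated DE2 replicate 3, irradiated WT replicates 1 and 2, the 3 untreated DE2 libraries and untreated WT replicates 2 and 3. With limma voom 50 of the 57 genes fell, against 1639 of 15126 over all genes. The same 7 did not pass, with adjusted p of 0.385 in Krtap20-2, 0.298 in Krtap5-2, 0.139 in Krtap4-13, 0.102 in Krtap9-5, 0.0981 in Krtap5-3, 0.0894 in Krtap31-2 and 0.052 in Krtap4-9.

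With UVB, Krtap levels in DE2 skin lay about 2-fold below WT, and no single gene passed the test. Point estimates were lower in DE2 for 56 of 57 genes, with a median log2 fold change of -0.97 against -0.03 over all genes. At an unadjusted p under 0.05 there were 30 genes, all lower, but 0 had an adjusted p under 0.05 in edgeR, where 0.608% of all tested genes fell and 2.96% passed in either direction. The 30 became 6 without irradiated DE2 replicate 2, 14 without irradiated WT replicate 1 and 40 without irradiated WT replicate 2. There were 47 with irradiated WT replicate 2 and untreated DE2 replicate 1 both left out. In 28 genes the 3 DE2 libraries lay below the 3 WT libraries, against 9.35% of all genes. DESeq2 called 4 Krtap genes lower, against 253 of 15126 over all genes, and limma voom 2, against 102 of 15126. On the 6 irradiated libraries alone edgeR called 7 lower, against 129 of 13610. Without the filter on low counts it called 38 lower, against 366 of 28874. When irradiated WT replicate 2 was left out together with untreated DE2 replicate 1, 5 were called lower, against 211 of 15494 over all genes. Without irradiated DE2 replicate 3 alone 1 was called lower, against 36 of 15744. Without untreated DE2 replicate 1 alone it was also 1, against 148 of 15663. The share of the family differed in the same direction, with irradiated DE2 at 0.497 of irradiated WT.

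Krtap29-1 (ENSMUSG00000078254, chromosome 11, 99978025 to 99979053, minus strand), a high sulfur gene, came nearest to a call. It had 8.7, 8.95 and 8.75 CPM in irradiated DE2 and 29, 19.7 and 39.5 CPM in irradiated WT libraries, a log2 change of -1.73 ± 0.48 (adjusted p = 0.0747). Krtap4-7 had 262, 124 and 218 CPM in irradiated DE2 and 494, 445 and 320 CPM in irradiated WT libraries, a change of -1.06 ± 0.32 (adjusted p = 0.0948). Krtap7-1, placed in the high sulfur class by the limits used here, has a high share of tyrosine. It had 656, 294 and 850 CPM in irradiated DE2 and 1460, 976 and 1390 CPM in irradiated WT libraries, a change of -1.09 ± 0.35 (adjusted p = 0.126). These groups did not overlap in any of the 3 genes.

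The genes with the largest p in this comparison were of other loci. Krtap5-3 had 29.1, 34.6 and 21.5 CPM in irradiated DE2 and 47.4, 2.21 and 36.8 CPM in irradiated WT libraries, a log2 change of -0.01 ± 0.83. Krtap5-2, the gene with a higher point estimate in DE2, had 51.1, 49.4 and 26.2 CPM in irradiated DE2 and 43.6, 0.246 and 38 CPM in irradiated WT libraries, a change of 0.64 ± 0.96. In both genes the low irradiated WT value came from replicate 2. By locus, the median log2 change was -1.11 on chromosome 11 (16 of 23 genes without overlap) and -0.95 on chromosome 16 (12 of 24). It was -0.35 on chromosome 1, -0.31 on chromosome 7 and -0.44 on chromosome 10, where 0 of 10 genes were without overlap. Over all tested genes 9.35% lay lower in DE2 without overlap. Irradiated WT replicate 2 was the lowest of its group for all 10 of these genes. On chromosome 11 it was the lowest for 10 of 23 genes and on chromosome 16 for 21 of 24. The difference between loci was not tested.

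In WT mice, no Krtap gene passed the test between irradiated and untreated skin. Point estimates were higher with UVB for 56 of 57 genes, with a median log2 fold change of 0.76 and a range of -0.23 to 1.71. Of these, 0 were called by edgeR, DESeq2 or limma voom, and 14 had an unadjusted p under 0.05. Without the filter on low counts edgeR called 8 higher, against 102 of 28874 over all genes. The 14 became 1 without irradiated WT replicate 1 or untreated WT replicate 1, 7 without untreated WT replicate 3, 8 without irradiated DE2 replicate 1 and 26 without irradiated WT replicate 2. In this comparison 0.0198% of all tested genes rose. In 12 genes the irradiated libraries all lay above the untreated ones, against 4.85% of all genes. In 0 genes they all lay below, against 5.25% of all genes.

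Krtap4-7 had the smallest p, with 494, 445 and 320 CPM in irradiated WT and 130, 309 and 182 CPM in untreated WT libraries, a log2 change of 1.02 ± 0.32 (adjusted p = 0.792). Krtap4-6 had 183, 167 and 108 CPM in irradiated WT and 45.9, 121 and 51.7 CPM in untreated WT libraries, a change of 1.07 ± 0.4. Krtap3-2 had 682, 507 and 445 CPM in irradiated WT and 185, 441 and 228 CPM in untreated WT libraries, a change of 0.94 ± 0.37. Krtap19-9b, a high glycine-tyrosine gene, had 1080, 453 and 804 CPM in irradiated WT and 349, 488 and 404 CPM in untreated WT libraries, a change of 0.91 ± 0.36. Krtap27-1, with 18.4, 12.3 and 16.1 CPM in irradiated WT and 13.5, 17 and 14.8 CPM in untreated WT libraries, had a change of 0.05 ± 0.42 that turned negative (-0.042) when libraries were scaled by total counts. Krtap5-3 was the gene with a lower point estimate, at -0.23 ± 0.83. The WT groups overlapped in Krtap27-1 and Krtap5-3, and not in Krtap4-7 and Krtap3-2.

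The change with UVB differed between the genotypes for most Krtap genes when that difference itself was tested. The interaction, the log2 change in DE2 minus the log2 change in WT, passed for 55 genes, all positive, where 5.64% of all tested genes passed in that direction. Scaled by total counts, all called genes split into 1220 positive and 368 negative in place of 853 and 732, and 55 Krtap genes passed as before. The median was 5.32 against 0.04 over all genes. It was 6.08 ± 0.54 in Krtap16-1 (adjusted p = 1.79e-05), 7.06 ± 0.64 in Krtap28-13, 6.94 ± 0.65 in Krtap13-1 and 5.32 ± 0.54 in Krtap1-5. Krtap28-13 (ENSMUSG00000101315, chromosome 1, 83060930 to 83061921, plus strand), whose protein is rich in cysteine and glycine, had 443, 362 and 261 CPM in irradiated DE2 and 3.66, 1.98 and 0.834 CPM in untreated DE2 libraries. Its levels were 587, 236 and 536 CPM in irradiated WT and 283, 288 and 568 CPM in untreated WT libraries. In all 4 genes the untreated DE2 libraries were the ones that stood apart.

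Krtap4-13 (3.93 ± 1.94, adjusted p = 0.221) and Krtap20-2 (2.88 ± 2.29, adjusted p = 0.472) did not pass the interaction. Krtap9-5 (7.12 ± 2.04, adjusted p = 0.0452) and Krtap4-9 (3.84 ± 1.13, adjusted p = 0.0458) passed narrowly. Krtap9-5 lost its call without any 1 of the irradiated DE2, untreated DE2 or untreated WT libraries (adjusted p 0.0508 to 0.103). Krtap4-9 lost its call without any 1 of the irradiated DE2 libraries, untreated DE2 replicate 2 or 3, irradiated WT replicate 1 or untreated WT replicate 2 or 3 (0.0519 to 0.124). Within the family DESeq2 called 54 positive, against 1204 of 15126 over all genes, and limma voom 41, against 686 of 15126.

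The genes of highest level per kb were largely shared between the groups. Per kb of exon, Krtap22-2 was highest, at 2270 CPM per kb in irradiated DE2, 3740 in irradiated WT, 67.1 in untreated DE2 and 2310 in untreated WT skin. Krtap8-1 was next in all 4 groups, at 1720, 3480, 36.3 and 2130 CPM per kb in the same order. Both are high glycine-tyrosine genes of chromosome 16. Krtap19-3 ranked 3 in irradiated DE2 (1390), irradiated WT (2430) and untreated WT (1280 CPM per kb), and Krtap3-2 ranked 3 in untreated DE2 (22 CPM per kb) but was not among the 10 highest of the other groups. The 10 highest genes of any 2 groups had 8 or 9 in common, a description over means that share libraries within a group.

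At the other end, Krtap4-13 had 1.91 CPM per kb in irradiated DE2, 4.8 in irradiated WT, 0 in untreated DE2 and 1.48 in untreated WT skin. Of the ultrahigh sulfur class, Krtap17-1, Krtap10-4 and Krtap4-7 were highest per kb over all libraries. Krtap17-1 had 297, 243 and 326 CPM in irradiated DE2, 502, 303 and 519 in irradiated WT, 14.6, 0.849 and 3.33 in untreated DE2, and 244, 322 and 463 CPM in untreated WT libraries. Krtap10-4, of chromosome 10, had 203, 151 and 204 CPM in irradiated DE2, 354, 107 and 324 in irradiated WT, 7.56, 1.13 and 1.94 in untreated DE2, and 159, 132 and 302 CPM in untreated WT libraries. In both genes replicate 2 was the lowest irradiated WT library.

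The high sulfur genes Krtap3-1, Krtap15 and Krtap7-1 were the highest of their class per kb. Krtap3-1 had 618, 273 and 903 CPM in irradiated DE2, 1640, 965 and 1250 in irradiated WT, 17.3, 5.94 and 7.5 in untreated DE2, and 500, 869 and 676 CPM in untreated WT libraries. Krtap15 had 1190, 482 and 1430 CPM in irradiated DE2, 2780, 1520 and 2220 in irradiated WT, 19.3, 17.3 and 9.17 in untreated DE2, and 908, 1490 and 1320 CPM in untreated WT libraries.

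The makeup of the family by protein class was similar in the 4 groups. High glycine-tyrosine genes took 45.8% ± 0.876 of Krtap counts in irradiated DE2, 41.9% ± 4.47 in irradiated WT, 42.2% ± 6.19 in untreated DE2 and 44.5% ± 3.06 in untreated WT skin. High sulfur genes took 41.2% ± 1.95, 46.1% ± 2.34, 46.1% ± 9.01 and 43.9% ± 2.24 in the same order. Ultrahigh sulfur genes took 12.1% ± 2.59, 11.3% ± 2.41, 11.1% ± 4.53 and 10.9% ± 1.07 (SD, n = 3). Group ranges overlapped except between the irradiated groups, where high sulfur genes took 39.7% to 43.4% in DE2 and 44.5% to 48.8% in WT, and high glycine-tyrosine genes 44.8% to 46.5% in DE2 and 36.7% to 44.6% in WT. With the cysteine limit applied first, the high glycine-tyrosine ranges overlapped, at 37.2% to 43.4% in irradiated DE2 and 34.9% to 41.3% in irradiated WT. By locus, chromosome 11 genes took 35.2% ± 4.85 in untreated DE2 against 25.7% ± 2.4 in untreated WT skin, without overlap. Chromosome 16 genes took 59.2% ± 6.16 in untreated DE2 against 66.6% ± 2.17 in untreated WT skin, on only 582 to 1700 Krtap counts per untreated DE2 library.

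Libraries of 1 group differed in which Krtap genes they held. In irradiated DE2, replicate 2 was the lowest library for 49 of 57 genes, including 21 of 23 on chromosome 11 and 23 of 24 on chromosome 16. Krtap14, a high sulfur gene, had 832, 284 and 1070 CPM there, and Krtap8-1 had 1050, 497 and 1410 CPM. Other genes, singled out after their values were seen, were level across the 3 libraries. Krtap12-1 had 84.3, 87.8 and 87.8 CPM, and Krtap16-1 and Krtap29-1 were as even. The median ratio of the highest to the lowest irradiated DE2 library was 2.38 over the 57 genes. It was 1.57 on chromosome 1, 1.61 on chromosome 7, 1.18 on chromosome 10, 2.6 on chromosome 11 and 2.78 on chromosome 16. In humans, KRTAP10, KRTAP12 and KRTAP24-1 are known mainly from the hair cuticle, the outer layer of the shaft. Krtap16-1 and Krtap29-1 are not among these, and a link between even levels and a layer of the hair was not tested.

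A second pattern set 1 library of each WT group apart. After each library's median over the genes was removed, every gene was set against the mean of the other 2 libraries of its group. Irradiated WT replicate 2 and untreated WT replicate 2 then deviated alike (Pearson r = 0.88 over 57 genes, a description, since genes are no replicates and near copies share reads). The correlation of irradiated WT replicates 1 and 3 with untreated WT replicates 1 and 3 was 0.67 to 0.8, and that of a replicate 2 with a replicate 1 or 3 of the other group -0.85 to -0.74. Since each library was set against the other 2 of its group, 1 library that stands apart also moves the deviations of those 2. The numbers were given in accession order, and whether libraries of equal number share an animal or a batch is not stated in the labels and was not tested. Krtap5-2 had 159, 1 and 125 counts in irradiated WT and 110, 12 and 216 counts in untreated WT libraries. Krtap20-2 had 17, 106 and 29 counts in irradiated WT and 3, 110 and 1 counts in untreated WT libraries. Both genes were far from the other WT libraries in the second one of each group, in opposite directions.

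Some further genes, singled out after their values were seen, also differed in the second library of each WT group. Krtap4-8 had 83.8, 180 and 66.3 CPM in irradiated WT and 34.2, 119 and 47.3 CPM in untreated WT libraries, and Krtap4-9 had 87.4, 159 and 59.9 CPM in irradiated WT and 22, 92.3 and 29.8 CPM in untreated WT libraries. Both were highest in the second library of each group. Krtap31-2 had 117, 15.3 and 85.4 CPM in irradiated WT and 38.1, 23.3 and 59.8 CPM in untreated WT libraries, and was lowest there. The median deviation of the 5 chromosome 7 genes was -0.97 in irradiated and -0.9 in untreated WT replicate 2 on the log2 scale, while that of the 23 chromosome 11 genes was 0.43 and 0.58, with single genes from -2.78 to 2.01 and from -1.42 to 1.46. The 24 chromosome 16 genes had medians near 0, at -0.09 and 0.02, and single genes from -1.91 to 2.54 and from -0.96 to 4.92. In irradiated DE2 replicate 2 it was 1.09 on chromosome 7 and -0.19 on chromosome 11.

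**Figure D4:**
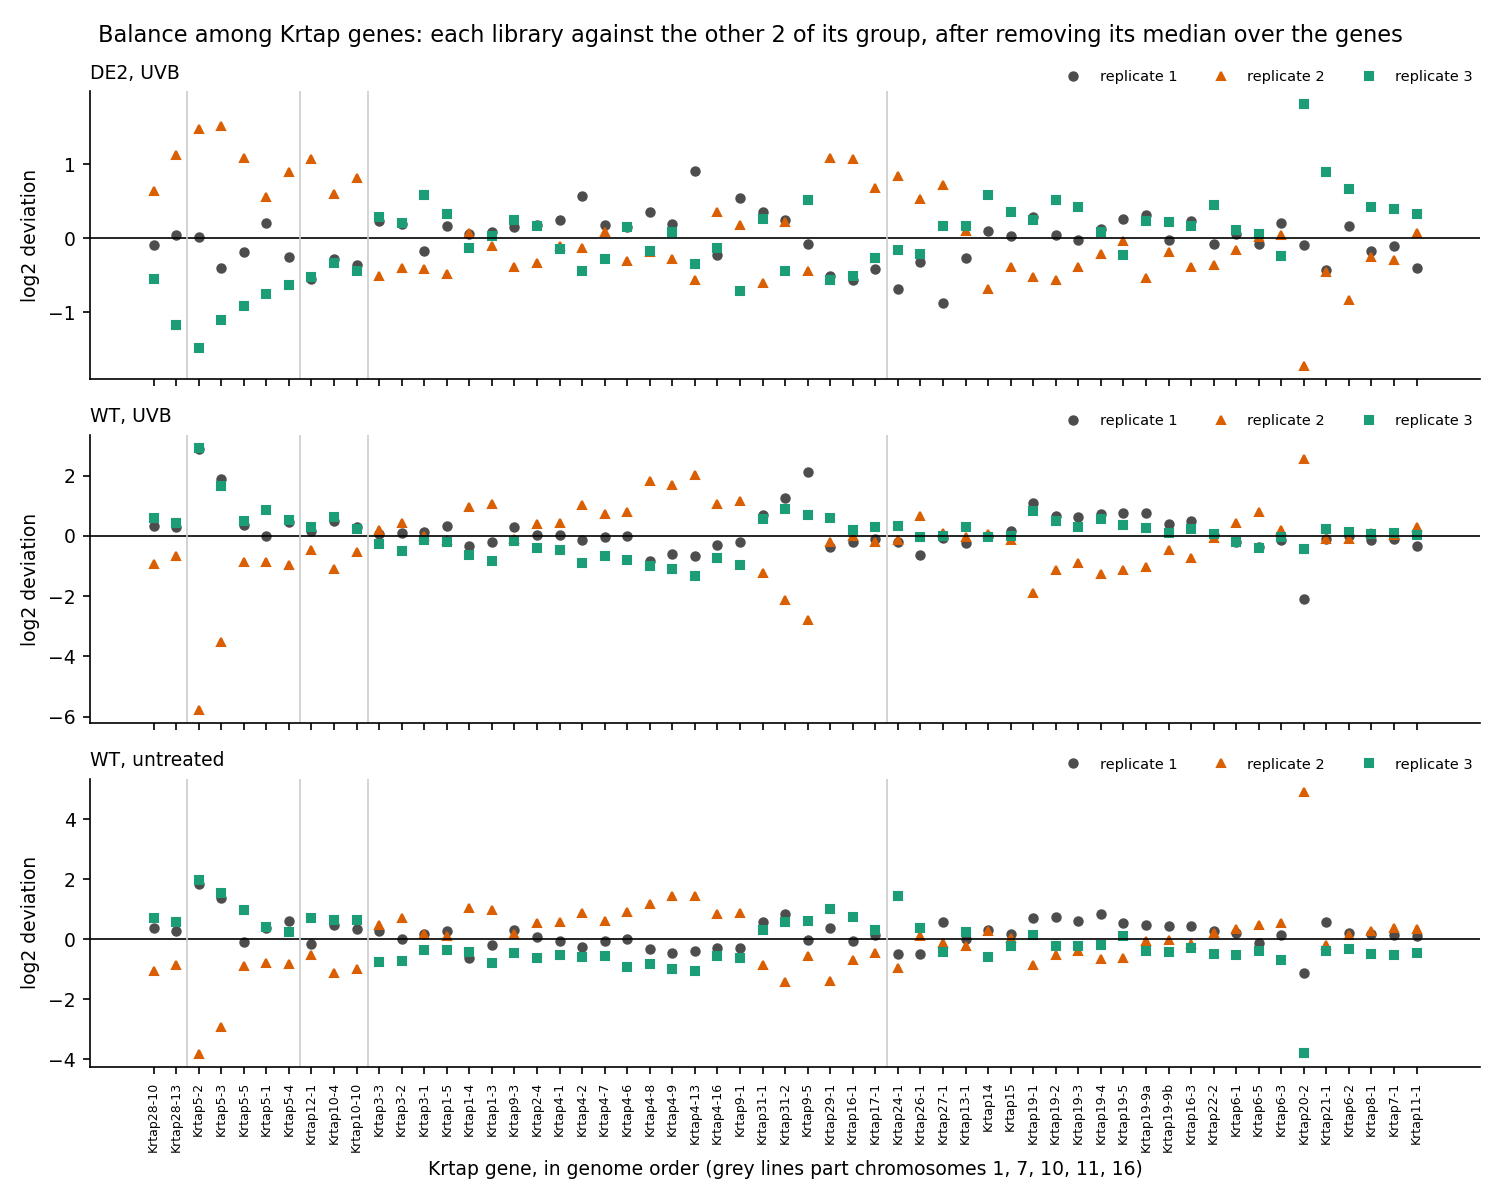
Log2 deviation of each Krtap gene in each library from the other 2 libraries of its group, after removing the library's median over the genes, for irradiated DE2, irradiated WT and untreated WT skin; untreated DE2 is left out for its low counts, and the panels differ in scale. Replicate 2 of both WT groups is low for Krtap5-2 (-5.78 and -3.83) and high for Krtap20-2 (2.54 and 4.92).

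Other transcripts of the growing hair moved in the same comparisons. Of the 16 cortex and cuticle keratins listed, 15 were tested. All 15 rose with UVB in DE2 (median log2 change 5.42) and fell in untreated DE2 against untreated WT (median -6.12). Over all tested genes 14.4% rose in the first comparison and 11.2% fell in the second. Krt83, a cortex keratin, had 1260, 636 and 1740 CPM in irradiated DE2, 3650, 2310 and 3750 in irradiated WT, 39.5, 22.9 and 19.2 in untreated DE2, and 1510, 2390 and 1880 CPM in untreated WT libraries. With UVB, Krt83 (-1.42 ± 0.36, adjusted p = 0.0485) and Krt86 (-1.49 ± 0.38, adjusted p = 0.0494) were lower in DE2 than in WT skin, and the median over the 15 was -1.35. Of the 5 defining shaft keratins that matched a symbol (Krt31, Krt34, Krt35, Krt81 and Krt86), 0 were at 0 in untreated DE2, where Krt35 had 40.5, 6.23 and 33.6 CPM. Hair shaft transcripts were thus detected in all 4 groups.

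All 11 inner root sheath genes, which mark the layer that moulds the growing shaft, rose with UVB in DE2 (median 5.1) and fell in untreated DE2 against untreated WT (median -5.39). Their share was 0.821% to 1.35% in irradiated DE2, 2.03% to 2.38% in irradiated WT, 0.00922% to 0.0663% in untreated DE2 and 0.992% to 2.07% in untreated WT libraries, and Krt74 alone of the 11 had 0 counts in untreated DE2. Krt73 had 678, 506 and 603 CPM in irradiated DE2 and 22.7, 7.36 and 12.2 CPM in untreated DE2 libraries. Of the 12 cell division genes, 11 rose with UVB in DE2 (median 2.98) and 12 fell in untreated DE2 against WT (median -3.16). For both lists the shares over all tested genes were 14.4% and 11.2%. Hair follicles, epidermis and other cells all use the cell division genes, so they mark no single cell type.

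Regulators of the hair matrix had a median log2 change of 1.64 with UVB in DE2 and of -2.16 in untreated DE2 against WT, and single genes went well past these. Of 15, 11 rose and 1 fell with UVB in DE2, against 14.4% and 13.4% of all tested genes. In untreated DE2 against WT 12 fell, against 11.2%, and 8 passed the interaction, all positive, against 5.64%. Gata3 was the gene that fell with UVB in DE2 (-0.84 ± 0.22, adjusted p = 0.0119), and it was not called in untreated DE2 against WT (-0.04 ± 0.22). Bmpr1a (0 ± 0.19), Bmp4 (-0.15 ± 0.32) and Foxq1 (0.44 ± 0.38) were not called with UVB in DE2. Hoxc13, a homeobox factor needed for hair keratin expression, had 51.1, 31.7 and 54.3 CPM in irradiated DE2, 103, 60.3 and 126 in irradiated WT, 3.66, 2.26 and 2.5 in untreated DE2, and 74.9, 101 and 70.7 CPM in untreated WT libraries. Lef1, the Wnt pathway factor of the matrix and precortex, had 46.2, 39.7 and 35 CPM in irradiated DE2, 95.6, 59.3 and 161 in irradiated WT, 1.46, 0.283 and 1.39 in untreated DE2, and 104, 123 and 102 CPM in untreated WT libraries. Both had their lowest levels in untreated DE2. The log2 change of Lef1 was 5.2 ± 0.46 with UVB in DE2 and -6.64 ± 0.46 in untreated DE2 against WT. Dlx4, a homeobox factor singled out after its values were seen, was the gene of this list with 0 counts in all untreated DE2 libraries. It had 14.1, 13.6 and 12.8 CPM in irradiated DE2, 32.1, 16.5 and 51.7 in irradiated WT, and 23.7, 44 and 30.8 CPM in untreated WT libraries. With UVB, Lef1 (-1.38 ± 0.32, adjusted p = 0.031), Dlx3 (-1.23 ± 0.27, adjusted p = 0.0227), Msx1 (-1.31 ± 0.3, adjusted p = 0.0298) and Foxn1 (-1.18 ± 0.28, adjusted p = 0.031) were lower in DE2 than in WT skin, and Hoxc13 did not pass (-1.08 ± 0.29, adjusted p = 0.0607).

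Markers of other cells moved in these comparisons too, and their part in the Krtap results was not tested. Melanocyte genes rose for 8 of 10 with UVB in DE2 and fell for 8 of 10 in untreated DE2 against WT. Over all tested genes the shares were 14.4% and 11.2%. Melanocyte genes took 0.0646% to 0.074% of counts in irradiated DE2, 0.0817% to 0.218% in irradiated WT, 0.00204% to 0.00518% in untreated DE2 and 0.127% to 0.142% in untreated WT libraries. Tyr, Oca2 and Gpr143 had 0 counts in untreated DE2, and the other 7 did not. Mitf (0.24 ± 0.38) and Sox10 (0.19 ± 0.6) were the 2 not called with UVB in DE2. Mitf had 27.5, 9.34 and 17.8 CPM in untreated DE2 and 18.9, 31 and 20.2 CPM in untreated WT libraries. Sox10 had 1.22, 3.96 and 3.33 CPM in untreated DE2 and 7.4, 10 and 6.67 CPM in untreated WT libraries. Whether the number of pigment cells differed was not tested. Dct, a melanin enzyme, was at 221, 207 and 254 CPM in irradiated DE2 and 9.02, 7.64 and 9.45 CPM in untreated DE2 libraries. All 16 muscle genes fell with UVB in DE2 and 13 of 16 were higher in untreated DE2 than in untreated WT, where 13.4% of all tested genes fell in the first comparison and 11.8% were higher in the second. No muscle gene listed was at 0 in any group. The muscle share was 2.82% to 3.45% in irradiated DE2 and 1.63% to 6.57% in irradiated WT libraries. Irradiated WT replicate 2 had the highest muscle share of its group (6.57%). Untreated DE2 replicate 1 had the lowest of its group (6.78%, against 11% and 12.2%). Leaving out both did not move the count of Krtap calls outside the irradiated DE2 to WT comparison by over 1.5 times. Leaving out the latter does not lessen the muscle difference from untreated WT, so whether muscle content affects these counts was not tested.

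Of the neutrophil and macrophage list, 6 of 10 genes rose with UVB in DE2, against 14.4% of all tested genes. These were S100a8, S100a9, Csf3r, Cxcr2, Il1b and Ly6c2. Adgre1 (0.32 ± 0.67), Cd68 (0.81 ± 0.4), Csf1r (0.03 ± 0.44) and Itgam (0.15 ± 0.63) were not called. In irradiated DE2 4 of 10 were higher than in irradiated WT, against 2.35% of all tested genes. The share of the list was 0.475% to 0.544% in irradiated DE2, 0.0273% to 0.0567% in irradiated WT, 0.00871% to 0.0214% in untreated DE2 and 0.0106% to 0.0172% in untreated WT libraries, and Csf3r was at 0 in untreated DE2. Adipocyte genes fell for 6 of 10 with UVB in DE2, against 13.4% of all tested genes. They took 0.121% to 0.181% in irradiated DE2, 0.173% to 0.195% in irradiated WT, 0.192% to 0.471% in untreated DE2 and 0.179% to 0.312% in untreated WT libraries. Of 11 genes of the epidermis between follicles, 3 rose and 4 fell with UVB in DE2, against 14.4% and 13.4% of all tested genes. In untreated DE2 against WT 1 of the 11 fell, against 11.2%. The 11 genes took 2.17% to 2.71% in irradiated DE2, 0.689% to 0.933% in irradiated WT, 0.773% to 1.73% in untreated DE2 and 0.731% to 1.13% in untreated WT libraries, so skin transcripts were present throughout. In irradiated against untreated WT skin, 0 genes of any of these 9 lists passed in edgeR. Over all tested genes only 0.0198% passed there in either direction, so a count of 0 does not set these lists apart.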

How the data were processed

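RNA of 12 mouse skin libraries was measured by RNA sequencing. The deposited values are whole read counts for each Ensembl identifier, not normalized by the authors. Per the submitters' processing notes the build was GRCm38 and the tools included HTSeq 2.0.2, SAMtools 1.16, Picard 3.1.0 and Trimmomatic 0.39. Not given in the sources used here are the aligner, the annotation release, whether counting used strand and whether duplicates were removed. Overlapping genes on opposite strands therefore cannot be separated, and the split of reads among near-identical Krtap copies is uncertain.

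Symbols came from GENCODE vM21 on GRCm38, which matched 53274 of 53465 identifiers. Of 16 hair keratins listed, Krt85 had no match. Counts were fitted in R 4.3.3 with edgeR 4.0.16 (TMM, the filter on low counts over 4 groups, 15126 genes including all 57 Krtap genes, 1 mean per group, robust quasi-likelihood F test, 8 residual degrees of freedom). The fit had a common dispersion of 0.128 (biological variation of 35.8%). Benjamini-Hochberg adjustment ran over all 15126 genes with a threshold of 0.05, and standard errors of log2 fold changes are approximate, worked back from the F statistic. The fit was also run on simulated counts with the same dispersion for every gene and few changed genes. These data differ from that setting, so its outcome is not used here. A gene at 0 in a group was given a bound at 3 counts over the group, and a gene with 1 to 3 counts an exact 95% interval of its ratio. Both cover counting error only. No 2 libraries were identical.

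Protein classes had been planned from RefSeq proteins, and translated GENCODE coding sequences were used in their place. Promoters are from RefSeq on GRCm38.p6, with coordinates counted from 1. Named genes were, by comparison, the 4 members of smallest and of largest p and up to 6 of opposite sign, the 3 of highest level per kb in each class, and 2 genes per list. Others named were chosen after their values were seen. The members and lists were chosen with earlier results of these data known. Alternatives were RLE and total-count scaling, no filter, a filter at 1 CPM in 3 libraries and 100 counts in all, DESeq2 1.42.0, limma 3.58.1 with voom, a fit of the compared libraries alone, each library left out, and pairs of libraries left out. Leaving out replicate 2 of both WT groups and the cysteine-first classes were added after seeing the data.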

Additional observations from a re-analysis of the deposited data

Results flagged for a closer look

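The change from untreated to irradiated skin differed between the genotypes, by a test of the interaction, in 55 of 57 Krtap genes. All 55 were positive, where 5.64% of all tested genes passed in that direction. The log2 difference, DE2 minus WT, was 6.08 in Krtap16-1, 7.06 in Krtap28-13, 6.94 in Krtap13-1, 5.32 in Krtap1-5, 7.12 in Krtap9-5 and 3.84 in Krtap4-9. Krtap9-5 and Krtap4-9 passed narrowly, and each lost its call when some single libraries were left out. Among other genes of growing hair the log2 difference was 5.03 in Krt82 and 4.72 in Krt83, both hair keratins. It was 4.98 in Krt73 and 4.52 in Padi3, both of the inner root sheath. It was 5.26 in Lef1 and 3.76 in Hoxc13, regulators of the hair matrix, and 4.61 in Dct and 6.04 in Mlana, both of melanocytes. Each had its lowest mean level in untreated DE2 skin.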

How the results depend on the processing

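The count of Krtap genes called kept within 1.5 times under every alternative run for UVB in DE2, untreated DE2 against untreated WT, and the interaction. With 1 library left out it was 55 to 56, 55 to 57 and 52 to 55, and it was 0 to 0 for UVB in WT and 0 to 1 for irradiated DE2 against irradiated WT. Without the filter on low counts, UVB in WT gave 8 of 141 genes called in either direction, and irradiated DE2 against irradiated WT 38 of 1031. The latter comparison gave 4 of 876 called genes with DESeq2, 2 of 574 with voom and 7 of 583 on its own 6 libraries. It gave 5 of 754 when irradiated WT replicate 2 was left out together with untreated DE2 replicate 1. The cause was not tested. Scaling by total counts moved the median of all genes from 0.02 to 0.26 for UVB in DE2 and from 0.03 to -0.37 for untreated DE2 against untreated WT.

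Limits of 30% glycine plus tyrosine and 25% cysteine put high glycine-tyrosine genes at 47.9% in irradiated DE2. High sulfur genes were then 31.1% in irradiated DE2, 35.7% in irradiated WT, 35.3% in untreated DE2 and 34.2% in untreated WT, and ultrahigh sulfur genes 20.1%, 20.2%, 19.8% and 18.6% in that order. With cysteine first, high glycine-tyrosine genes were 40.8% in irradiated DE2 and 40.4% in untreated WT, and ultrahigh sulfur genes 17.1% in irradiated DE2, 14% in irradiated WT and 15% in untreated WT. These limits move members between classes.

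Among named genes, 629 values kept direction and side of the threshold, 16 lost and 17 gained a call and 7 reversed. Krtap27-1 for UVB in WT reversed at -0.042 with total counts. With voom, Krtap5-2 for UVB in WT was -1.07, Krtap5-3 in irradiated DE2 against WT 0.97 and the Krtap20-2 interaction -0.048. With the same pair left out, UVB in WT gave -0.38 in Krtap20-2 and 0.31 in Krtap5-3. Without replicate 2 of both WT groups the Krtap20-2 interaction was -0.39.
With 1 library left out, 863 values kept both, 36 lost a call and 13 reversed. UVB in WT then ranged from -0.09 to 0.19 in Krtap27-1, -0.37 to 0.99 in Krtap5-2, -0.39 to 4.83 in Krtap20-2 and -0.81 to 0.51 in Krtap5-3. Irradiated DE2 against WT ranged from -0.56 to 0.56 in Krtap5-3, and the Krtap20-2 interaction from -1.29 to 5.58.

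No paired analysis was possible because replicate numbers were given in accession order and no label links libraries to animals. Low counts limit Krtap4-13, Krtap20-2 and the genes at 0 in untreated DE2.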
